A study of Mus musculus with 8 samples.

Results

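The immunity-related GTPases are a family of interferon-inducible GTP-binding proteins, and 7 of them, out of the 24421 genes in the files, are described here across genotype and day of culture. They were taken by gene symbol, with no measured value in the rule: Irgm1, Irgm2, Igtp, Iigp1, Tgtp1, Tgtp2 and Ifi47. Earlier results of these data were known when these genes were chosen. The cells were calvarial osteoblastic cells, released by enzymes from the skull bones of newborn C57BL/6 mice (0 to 3 days old), either WT littermates or mice lacking Def6 (Def6-/-). RNA was taken at day 0, after expansion without ascorbic acid, and at day 12 in osteogenic medium, which held ascorbic acid and β-glycerophosphate and was given to both genotypes. Each of the 4 groups (WT day 0, WT day 12, Def6-/- day 0 and Def6-/- day 12) held 2 libraries, described by the study as biological replicates. The cultures were not sorted, so that cells other than osteoblasts could be present. The number of pups behind a library is not given in the sources used here.

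Interferons bind receptors on the cell surface and, through JAK kinases and STAT proteins, switch on a large set of genes, among which the immunity-related GTPases are some of the most strongly induced in mice. The proteins bind to the membranes of vacuoles that hold parasites or bacteria such as Toxoplasma and Chlamydia, and disrupt them. The family has a regulatory and an effector class. Irgm1, Irgm2 and Igtp (also called Irgm3) form the GMS class, named after a glycine-methionine-serine stretch in the nucleotide-binding loop, and sit on the cell's own membranes, where they keep the effectors inactive. Iigp1, Tgtp1, Tgtp2 and Ifi47 belong to the GKS class, with glycine-lysine-serine in that loop, and are the effectors that coat the vacuole. In bone, both osteoblasts and macrophages can respond to interferon.

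In GRCm38, the genome assembly also called mm10, 6 of the 7 genes lie on chromosome 11 (GENCODE vM21 annotation). Irgm1 (chr11:48861968-48871683, minus strand), Tgtp1 (chr11:48985327-48994172, minus), Tgtp2 (chr11:49057194-49064206, minus) and Ifi47 (chr11:49076587-49096974, plus) fall within 235 kb. Igtp (chr11:58199556-58207591, plus) and Irgm2 (chr11:58199618-58222782, plus) overlap each other within 23.2 kb. Iigp1 lies on another chromosome, given with its values.

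Promoter sequence was read from RefSeq (GRCm38.p6, from 250 bases before to 50 bases after the start site), which gave a window for 6 of the 7 genes, all but Iigp1. The interferon-stimulated response element, found before many interferon-induced genes, contains 2 copies of GAAA with 2 bases between them, here called the double GAAA, and the gamma-activated site contains TTCNNNGAA. On either strand, the double GAAA was found in 5 of the 6 windows, all but that of Ifi47, against 3.44% of 32851 promoters of the same length. TTCNNNGAA was found in 4 of the 6 windows, those of Irgm2, Igtp, Tgtp1 and Tgtp2, against 8.30% of all promoters. In these 4 windows TTCNNNGAA came first, and 2 bases separated it from the double GAAA. The stretches that hold these letters are shown because they are what the 5 upstream sequences have in common, written 5′ to 3′ on the gene's strand with both motifs in capitals.
Irgm1 (chr11:48871432-48871461, minus): gcctgtttcaaGAAATAGAAACCGAAActg
Irgm2 (chr11:58214902-58214931, plus): TTCCAGGAActGAAACTGAAAgctgttcgg
Igtp (chr11:58199511-58199540, plus): TTCTAGGAActGAAACTGAAAgctgttcgg
Tgtp1 (chr11:48992305-48992334, minus): TTCCAGGAAtcGAAACTGAAAcctacctga
Tgtp2 (chr11:49064264-49064293, minus): TTCCAGGAAtcGAAACCGAAAcctactctg
The last base of each stretch lies between 12 bases (Irgm1) and 59 bases (Tgtp1) before the RefSeq start site. This site is not always the outer end of the gene in GENCODE, so that the stretches of Irgm1, Irgm2 and Tgtp1 lie inside the gene spans given above. The stretch of Irgm1 holds 2 overlapping copies of the double GAAA and lacks TTCNNNGAA. The upstream bases of Igtp and Irgm2 were 92.1% identical over 214 aligned bases, and those of Tgtp1 and Tgtp2 were 91.6% identical over 107. A match of letters is a description of the sequence and does not show that a factor binds there, and a window without one says nothing of the factor.

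Each library held between 2414856 and 3482837 reads on genes, which were between 28.8% and 35.3% of its reads. Def6 had 112 to 186 reads in the WT libraries and 0 to 2 in the Def6-/- libraries, so that the labels of all 8 libraries match their Def6 reads. Levels are given as normalized CPM, that is, reads of a gene per 1000000 reads on genes after TMM scaling. Differences between groups are on the log2(normalized CPM + 1) scale and were tested with limma over the 12348 genes whose mean deposited CPM reached 1 in at least 1 group. Of the 7 genes, 5 passed this filter. Irgm1, Irgm2 and Igtp passed it already at day 0. Iigp1 and Ifi47 passed it only through day 12, so that they had to be higher at day 12, and their rise is given as a description. In bulk RNA, fewer cells of a type and less RNA per cell cannot be told apart.

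Irgm1, a regulator that mice need to control mycobacteria, was the most abundant of the family at both days. In WT cells its level was 21.7 and 25.1 normalized CPM at day 0 (55 and 71 reads) and 75.5 and 86.3 at day 12 (263 and 206 reads). In Def6-/- cells it was 10.2 and 17.7 at day 0 (27 and 52 reads) and 43.1 and 59.8 at day 12 (105 and 140 reads). WT was the higher genotype at each day without overlap, and day 12 lay above day 0 in each genotype.

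Irgm2, a regulator found mainly at the Golgi, started lower and varied more at day 0. It had 3.16 and 5.65 normalized CPM in WT cells at day 0 (8 and 16 reads), and 50.2 and 72.9 at day 12 (175 and 174 reads). In Def6-/- cells it had 3.01 and 10.6 at day 0 (8 and 31 reads), and 38.2 and 38.9 at day 12 (93 and 91 reads). The genotypes overlapped at day 0 because replicate 2 of the Def6-/- cells stood above the other 3 libraries. At day 12 the WT libraries were the higher pair, without overlap.

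Igtp, the regulator of the endoplasmic reticulum and lipid droplets, was close to equal in the 4 libraries of day 0. It had 3.55 and 3.53 normalized CPM in WT cells (9 and 10 reads) and 4.14 and 3.75 in Def6-/- cells (11 and 11 reads). At day 12 it reached 21.2 and 33.1 in WT cells (74 and 79 reads) and 16.4 and 15.8 in Def6-/- cells (40 and 37 reads). The Def6-/- libraries were thus slightly above WT at day 0 and below WT at day 12, without overlap at either day.

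Iigp1, an effector that coats the Toxoplasma vacuole, lies on chromosome 18 (chr18:60376027-60392634, plus strand) and was barely detected at day 0. It had 1 and 3 reads in WT cells and 1 and 3 reads in Def6-/- cells, or between 0.376 and 1.06 normalized CPM. At day 12 it had 29.3 and 39.8 normalized CPM in WT cells (102 and 95 reads) and 16.0 and 21.8 in Def6-/- cells (39 and 51 reads). The day 12 groups did not overlap, with Def6-/- the lower.

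Ifi47, an effector of the GKS class, had the fewest reads of the 5. At day 0 it had 1 read in each WT library and 2 reads in each Def6-/- library. At day 12 it had 15.8 and 20.52 normalized CPM in WT cells (55 and 49 reads), and 9.03 and 8.97 in Def6-/- cells (22 and 21 reads). Def6-/- was again the lower at day 12 without overlap, while the order at day 0 rests on single reads.

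**Figure D1:**
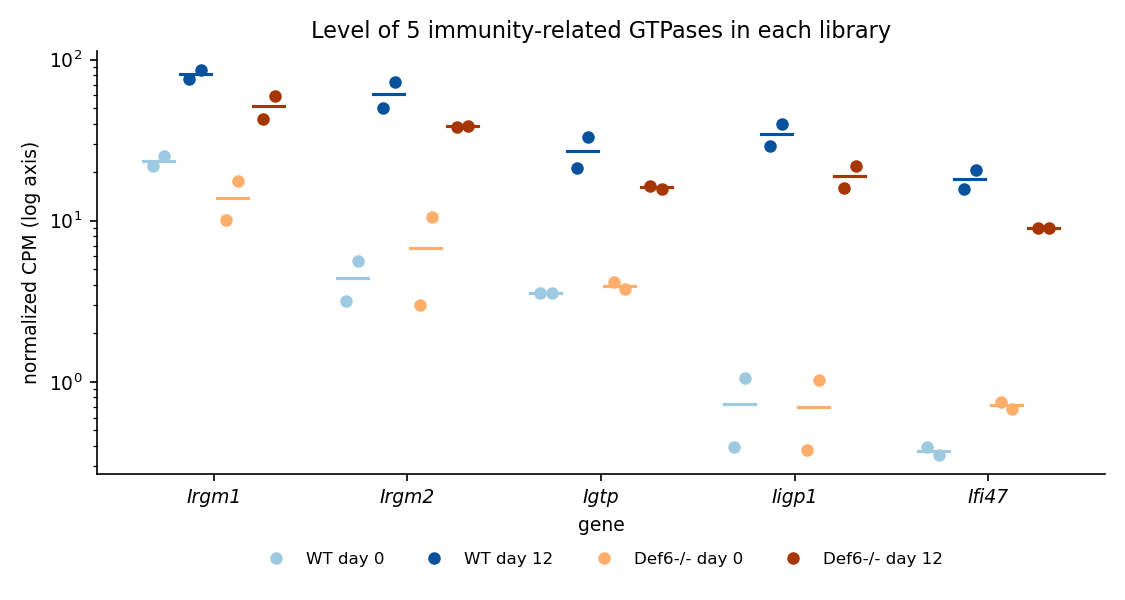
Normalized CPM (log axis) of the 5 genes past the filter, with a point for each of the 2 libraries of a group and a line at the group mean. All 5 genes are higher at day 12 than at day 0 without overlap, as 29.3% (WT) and 35.2% (Def6-/-) of all genes are. Iigp1 and Ifi47 passed the filter only through day 12 and so had to be higher there. At day 12 both Def6-/- points of every gene lie below both WT points, as for 15.9% of all genes. At day 0 this holds for Irgm1, while both Def6-/- points of Igtp and Ifi47 lie above both WT points.

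The pair of Tgtp genes, which code for the T cell-specific GTPase first found in stimulated T cells, was close to the limit of detection. Tgtp1 had 1 read, in WT replicate 2 at day 0, and 0 reads in the other 7 libraries. Tgtp2 had 1 read in that same library, 2 reads in each WT library at day 12, 3 reads in the second Def6-/- library of day 12, and 0 reads in the other 4. A count of 0 allows up to 3 reads in a library, so that no difference between groups was detectable at this depth. These counts are uncertain for another reason: 91.4% of the 50-base stretches of the Tgtp1 transcript and 90.6% of those of Tgtp2 also occur in another gene, mostly in each other, and the transcripts are 99.8% identical over 2810 aligned bases. By HTSeq's usual rule a read that fits both places equally well is counted for neither gene, and 21.5% to 34.9% of the reads of a library were set aside as not unique. With both genes added up, the highest group mean was 0.219 deposited CPM, still under the filter. The windows before both genes hold the same pair of motifs as those of Igtp and Irgm2, as printed above, while their counted reads do not rise past the limit; how many reads were set aside at these genes was not tested.

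**Figure D2:**
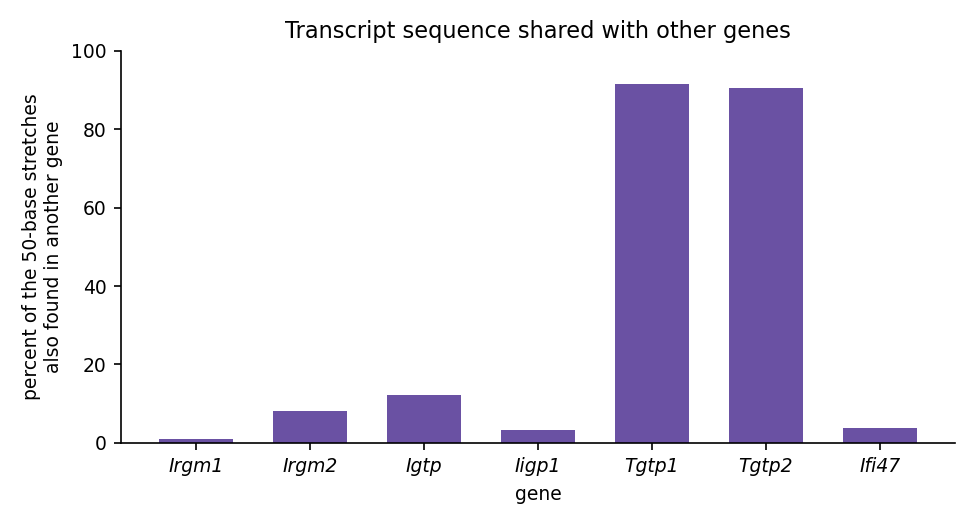
Percent of the 50-base stretches of each gene's transcript that also occur in a transcript of another gene. Tgtp1 (91.4%) and Tgtp2 (90.6%) stand apart from the other 5 genes, which lie between 0.996% and 12.3%.

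The other genes share little. Igtp shares 12.3% and Irgm2 7.07% of these stretches with each other, from the place where their transcripts overlap, where the same rule leaves reads uncounted. Iigp1 shares 2.83% with its relative Gm4951. Ifi47 shares 3.71% with Olfr56, an olfactory receptor gene annotated over the same place. The strand setting of the counting is not given in the sources used here.

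Per kb of transcript, which allows genes to be compared, the order of the 5 genes at day 12 was the same in both genotypes. In WT cells the mean level was 35.8 ± 3.38 normalized CPM per kb (SD, n = 2) for Irgm1. It was 17.7 ± 4.61 for Irgm2, 13.4 ± 4.14 for Igtp, 11.1 ± 2.38 for Iigp1 and 10.2 ± 1.89 for Ifi47, in the same unit. Irgm1 stood above Irgm2 without overlap, while each of the later neighbours in this order overlapped. In Def6-/- cells the means ran from 22.8 ± 5.21 for Irgm1 over 11.1 ± 0.136 for Irgm2 and 7.97 ± 0.220 for Igtp to 6.05 ± 1.31 for Iigp1 and 5.08 ± 0.0270 for Ifi47.

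The makeup of the family changed between the days. Irgm1 held 76.1% and 72.7% of the summed level per kb of the 7 genes in the WT libraries of day 0, and 43.5% and 38.1% at day 12. In Def6-/- cells its share was 56.5% and 58.3% at day 0, below both WT libraries, and 39.4% and 45.7% at day 12, overlapping WT. Iigp1 went the other way, from 1.002% and 2.22% to 12.2% and 12.7% in WT cells and from 1.52% and 2.44% to 10.6% and 12.04% in Def6-/- cells. At day 12 the family was therefore spread over both classes in all 4 libraries, whereas at day 0 it consisted mostly of a regulator.

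**Figure D3:**
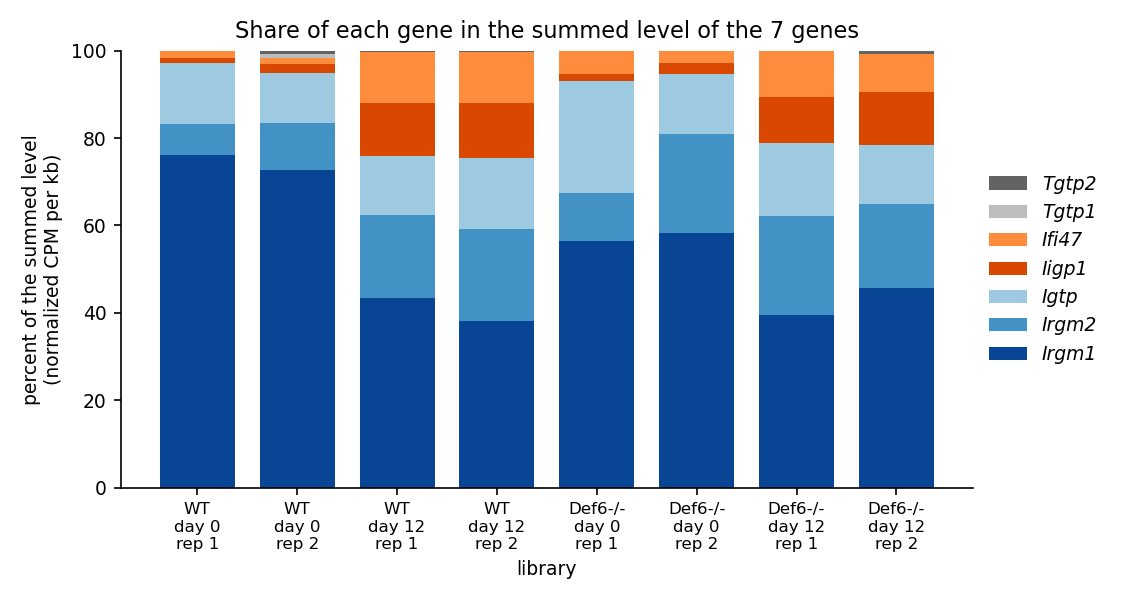
Share of each gene in the summed level of the 7 genes (percent of normalized CPM per kb), 1 bar per library. Irgm1 takes 56.5% to 76.1% at day 0 and 38.1% to 45.7% at day 12, while Iigp1 takes at most 2.44% at day 0 and at least 10.6% at day 12, and Ifi47 at most 5.33% and at least 8.73% (effectors in orange).

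From day 0 to day 12 in WT cells, the 3 regulators rose: Irgm2 by 3.55 ± 0.48 (SE) on the log2 scale, with a limma adjusted p of 0.00137, Igtp by 2.60 ± 0.30 (adjusted p = 0.000669) and Irgm1 by 1.75 ± 0.29 (adjusted p = 0.00396). Of all genes tested, 12.7% rose by this rule, and in 29.3% the WT libraries of day 12 lay above those of day 0 without overlap. The effectors Iigp1 and Ifi47, which the filter admitted only through day 12, differed by 4.37 ± 0.37 and 3.79 ± 0.32 on the same scale. The added 1 makes changes of low genes look smaller, so the ratio of normalized reads is given as well. It was 3.40 for Irgm1 (95% exact interval 2.79 to 4.17), 13.3 for Irgm2 (8.78 to 21.02), 7.36 for Igtp (4.55 to 12.6), 45.0 for Iigp1 (17.3 to 166.8) and 47.5 for Ifi47 (12.8 to 397.5). These intervals cover counting error only. The interval of Irgm1 lies below those of the other 4 genes.

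In Def6-/- cells the same genes rose. Irgm2 rose by 2.54 ± 0.48 on the log2 scale (limma adjusted p = 0.00691), Irgm1 by 1.84 ± 0.29 (adjusted p = 0.00306) and Igtp by 1.79 ± 0.30 (adjusted p = 0.00391), where 12% of all genes rose by this rule and 35.2% were higher without overlap. Iigp1 and Ifi47 differed by 3.56 ± 0.37 and 2.54 ± 0.32. The ratio of normalized reads was 3.63 for Irgm1 (interval 2.81 to 4.74), 5.52 for Irgm2 (3.89 to 8.02), 4.10 for Igtp (2.52 to 6.92), 26.4 for Iigp1 (9.94 to 98.8) and 12.6 for Ifi47 (4.58 to 48.3). Without either Def6-/- library of day 12, Irgm2 no longer passed (adjusted p = 0.0563 without replicate 1 and 0.0590 without replicate 2).

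**Figure D4:**
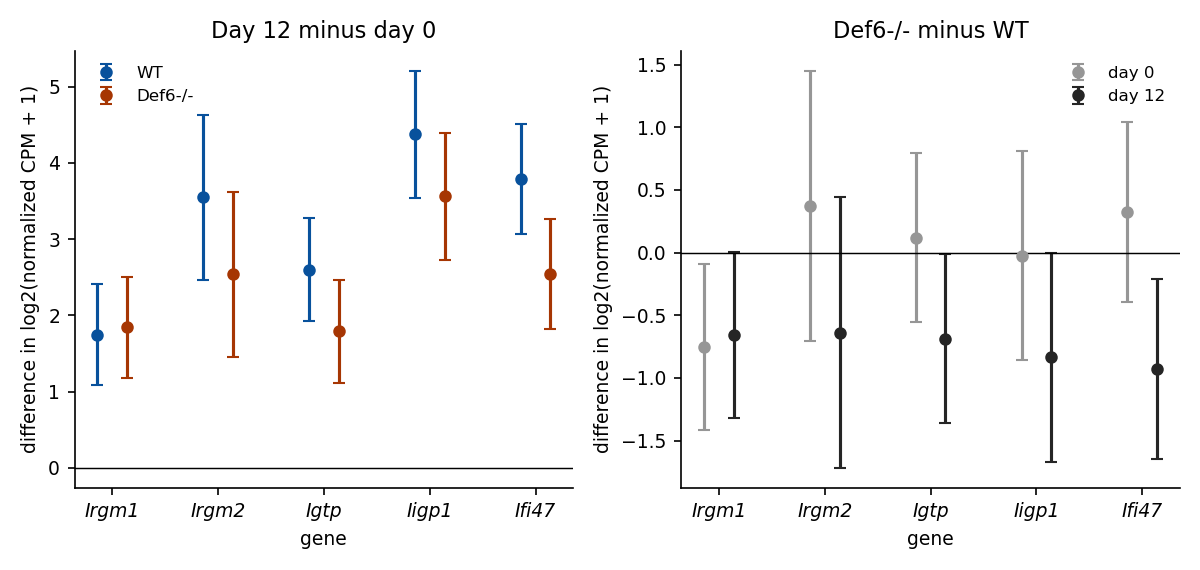
Difference in log2(normalized CPM + 1) with its 95% interval from limma, for day 12 minus day 0 in each genotype (left) and for Def6-/- minus WT at each day (right). On the left the intervals of the 3 regulators lie above 0, as do those of Iigp1 and Ifi47, which the filter admitted only through day 12; on the right the 5 values of day 12 lie between -0.93 and -0.64, while those of day 0 lie on both sides of 0.

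Whether the loss of Def6 went with another level of these genes was asked at each day. The rule for genotypes was an unadjusted limma p under 0.05, which is a 95% interval that leaves out 0, and a change over 1.2-fold. With 2 libraries against 2, an exact two-sided permutation test of a single gene cannot go below 0.333, so that such calls rest on the spread that limma takes from all genes. At day 0, Irgm1 was lower in Def6-/- cells by this rule, as were 1.31% of all genes, with a difference of -0.75 on the log2 scale (95% interval -1.41 to -0.09, limma adjusted p = 0.908). The ratio of normalized reads was 0.601 (interval 0.448 to 0.803).

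The other 4 genes did not pass at day 0, with differences of 0.37 for Irgm2, 0.12 for Igtp, -0.02 for Iigp1 and 0.32 for Ifi47. Igtp and Ifi47 were higher without overlap, and Irgm1 was lower without overlap, as 10.9% and 11.7% of all genes were. The value of Irgm1 was -0.38 without replicate 1 of the Def6-/- cells and -0.65 without replicate 2 of the WT cells, and it passed in neither case.

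At day 12, all 5 genes were lower in Def6-/- cells without overlap, against 15.9% of all genes. By limma, 3 of the 5 passed, against 0.591% of all genes lower by this rule. These were the effectors Ifi47 (-0.93, 95% interval -1.65 to -0.21) and Iigp1 (-0.84, -1.67 to -0.0013) and the regulator Igtp (-0.69, -1.36 to -0.01). Irgm1 (-0.66, -1.32 to 0.0011) and Irgm2 (-0.64, -1.72 to 0.44) did not pass. After adjustment over all genes 0 of the 5 passed, with a limma adjusted p of 1 for each; 1 gene of all those tested (0.0081%) was lower at an adjusted p under 0.05. The median difference of the 5 genes was -0.69, beside -0.0006 for all genes tested. The filter did not force this direction, since each of the 5 genes reached it in the Def6-/- group of day 12 too. Ifi47, Iigp1, Irgm1 and Irgm2 are among the interferon response genes that the study chose from these same libraries for display, so their direction is not independent evidence.

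The sizes at day 12 were alike. The ratio of normalized reads, Def6-/- over WT, was 0.508 for Ifi47 (interval 0.348 to 0.732), 0.562 for Iigp1 (0.433 to 0.724), 0.619 for Igtp (0.464 to 0.819), 0.642 for Irgm1 (0.548 to 0.751) and 0.648 for Irgm2 (0.539 to 0.777). All 5 intervals overlap each other and lie below 1, and they cover counting error only, not the spread between cultures. The limma calls are close to the threshold and depend on single libraries. Of the 5 genes, 0 passed without replicate 1 of the Def6-/- cells or without replicate 2 of the WT cells, 1 (Irgm1) passed without replicate 2 of the Def6-/- cells, and 2 (Igtp and Ifi47) passed without replicate 1 of the WT cells. All 5 values stayed below 0 in each of these fits, the lowest and highest being -1.11 and -0.75 for Ifi47 and -0.998 and -0.38 for Igtp.

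The test of whether the rise differed between genotypes, the difference of the 2 changes, passed for Ifi47 (-1.25 on the log2 scale, 95% interval -2.26 to -0.23, limma adjusted p = 0.9998), as for 0.421% of all genes. The change of Ifi47 was the smaller in Def6-/- cells, with its day 0 levels resting on 1 or 2 reads per library. The differences were -1.01 for Irgm2 (interval -2.54 to 0.52), -0.81 for Iigp1 (-1.99 to 0.37) and -0.81 for Igtp (-1.76 to 0.14), which did not pass. For Irgm1 it was 0.09 (-0.84 to 1.03), and Irgm1 was lower in Def6-/- cells by a like amount at both days.

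Single libraries decided these calls too. Ifi47 did not pass without replicate 2 of the WT cells of day 12 (-1.07), without replicate 2 of the Def6-/- cells of day 12 (-1.24) or without replicate 1 of the Def6-/- cells of day 0 (-1.22). Irgm2 passed without the last of these libraries (-1.77), and Igtp passed without replicate 1 of the WT cells of day 12 (-1.14).

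Markers of other cells moved over the same 12 days. The summed level of 14 macrophage markers, among them the complement genes C1qa, C1qb and C1qc, was 184.7 to 412.8 normalized CPM in the 4 libraries of day 0 and 3173 to 6327 in those of day 12. Of the 14, 13 passed the filter at day 0, and of these 12 rose in WT cells and 12 in Def6-/- cells by adjusted p, against 12.7% and 12% of all genes. Aif1 reached the filter only through the WT cells of day 12. The summed level of 10 osteoblast markers was far higher at both days: 28970 to 43530 at day 0 and 81650 to 115900 at day 12. Most of it came from Col1a1 and Col1a2, with means of 49910 and 35700 in WT cells at day 12, while Bglap had 0 reads at day 0. Of the 10, 7 passed the filter at day 0, and of these 3 rose in each genotype by adjusted p, against 12.7% and 12% of all genes. Of 7 markers of T and NK cells, 6 were at 0 in all 8 libraries, with a single read of Klrb1c, and the 5 endothelial markers summed to at most 6.28, with Tie1 and Emcn at 0. The part of the macrophages in the rise of the GTPases was not tested.

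The macrophage markers and the GTPases are set side by side for day 12. WT replicate 1 had the most macrophage marker signal (6327) and a summed level of the 7 GTPases of 192.6, whereas WT replicate 2 had the least (3173) and a summed level of 253.4, the highest of all. Def6-/- replicates 1 and 2 had 3944 and 3432 for the markers and 122.8 and 146.4 for the GTPases. The part of the macrophages in the difference between genotypes was not tested. By genotype, all 14 markers, Aif1 among them, were lower in Def6-/- cells at day 12 (median -0.32), against 50.1% of all genes. By limma at an unadjusted p under 0.05, 0 of the 14 passed the rule, against 0.591% of all genes. Without overlap, 1 of the 14 was lower, against 15.9% of all genes. Per 100 normalized CPM of macrophage markers, mostly Lyz2, the GTPases stood at 3.04 and 7.99 in WT cells and at 3.11 and 4.27 in Def6-/- cells, which overlap. The summed osteoblast markers, mostly Col1a1 and Col1a2, were at 81650 and 97640 in WT cells and at 100200 to 115900 in Def6-/- cells, with the higher values in Def6-/- cells.

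**Figure D5:**
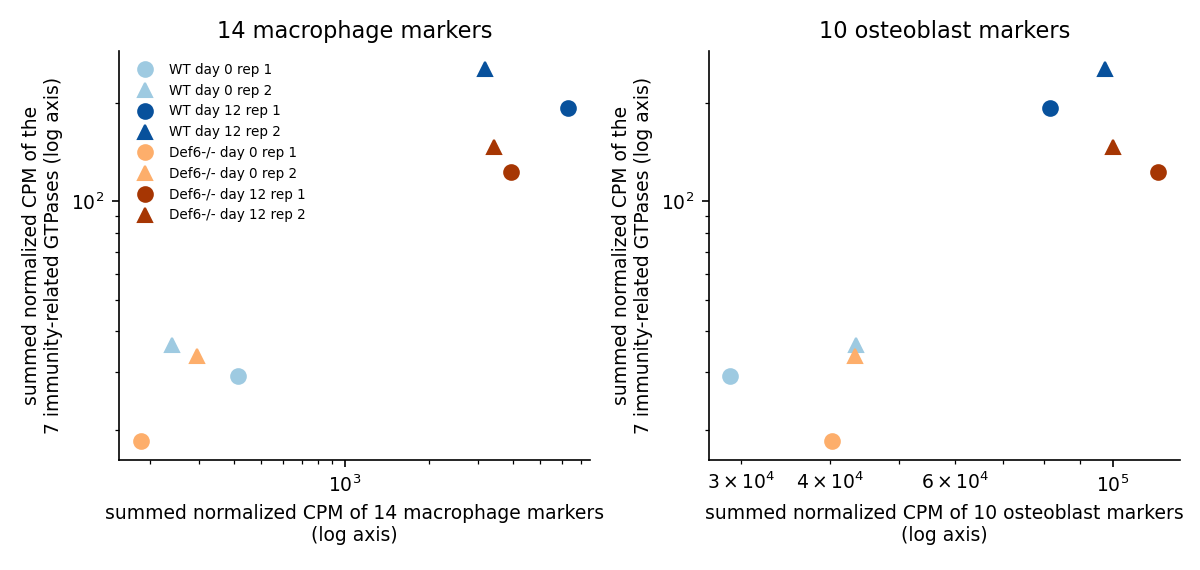
Summed normalized CPM of the 7 GTPases against that of 14 macrophage markers (left) and of 10 osteoblast markers (right), both axes logarithmic, 1 point per library (circles replicate 1, triangles replicate 2). Both WT libraries of day 12 (192.6 and 253.4) lie above both Def6-/- libraries (122.8 and 146.4), and the macrophage signal at day 12 runs from 3173 (WT replicate 2) to 6327 (WT replicate 1). Most of this day 12 macrophage signal is Lyz2.

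The genes that carry the interferon signal to the family were read from a list of 17. Neither interferon was found at a level that could be tested: Ifng had 0 reads in all 8 libraries and Ifnb1 had 2 reads in all, both from the Def6-/- culture of replicate 1 at day 12. The type I receptor subunit Ifnar1 was present in every library (89.5 to 108.2 normalized CPM), as was Ifngr1 of the interferon gamma receptor (44.4 to 62.0). Of the 15 genes tested, 6 rose in WT cells, among them Irf9, Irf7 and Irf8, against 12.7% of all genes, and 5 in Def6-/- cells, against 12%. All 15 passed the filter at day 0, Irf7 only through the WT cells and Irf8 only through the Def6-/- cells. By adjusted p 0 of the 15 fell in either genotype, where 5.63% of all genes fell in WT cells and 4.79% in Def6-/- cells.

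Irf7, the regulator that amplifies type I interferon, was lower in Def6-/- cells at day 0 (-1.30, limma 95% interval -2.36 to -0.24) and at day 12 (-1.43, -2.49 to -0.38). Irf9, the DNA-binding subunit of the complex that type I interferon activates, was lower at day 12 (-0.65, -1.28 to -0.02) and differed by 0.04 at day 0, which did not pass. By this unadjusted rule 1 of the 15 was lower at day 0 and 2 at day 12, against 1.31% and 0.591% of all genes. In the other direction 1 passed at day 0 and 0 at day 12. After adjustment over all genes 0 of the 15 passed between genotypes at either day. Irf8, a factor of myeloid cells, was higher in Def6-/- cells at day 0 (0.75, 0.11 to 1.39, limma adjusted p = 0.908), as were 0.988% of all genes, and differed by 0.02 at day 12. Its day 0 difference rests on few reads: 3 and 4 in WT cells and 8 and 8 in Def6-/- cells, or 0.419 and 1.006 mean deposited CPM.

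The guanylate binding proteins, which are recruited to the same vacuoles, are the nearest functional partners of the family. Of 11 genes 6 were tested, of which 2 (Gbp2 and Gbp7) passed the filter at day 0. Both rose in WT cells, by 1.18 (limma adjusted p = 0.0141) and 2.14 (adjusted p = 0.0277), and Gbp7 rose in Def6-/- cells, by 2.30 (adjusted p = 0.0214). By this rule 12.7% of all genes rose in WT cells and 12% in Def6-/- cells. Gbp3, Gbp5, Gbp6 and Gbp9 passed the filter only through day 12 and so had to be higher there. At day 12 Gbp3 had 38.5 and 63.2 normalized CPM in WT cells and 20.53 and 14.9 in Def6-/- cells, and it had 1.97 to 3.53 in the 4 libraries of day 0. It reached the filter in both genotypes at day 12 and was lower in Def6-/- cells (-1.44, limma 95% interval -2.26 to -0.63), with a difference of the 2 changes of -1.30 (-2.45 to -0.15). Both are calls by the unadjusted rule, which 0.591% and 0.421% of all genes passed in the same direction. After adjustment over all genes Gbp3 passed in neither. Gbp2 (-0.32), Gbp6 (-0.27) and Gbp7 (-0.19) did not pass between genotypes at day 12. Gbp5 (21 and 9 reads in WT cells, 4 and 6 in Def6-/- cells) and Gbp9 (17 and 9 reads, 4 and 3) reached the filter only through the WT cells of day 12, which favours a lower value in Def6-/- cells, so their differences are not read here. Members of this family are similar copies whose reads could have been split, which was not tested.

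Less studied relatives of the family were listed with 14 symbols, of which 12 were in the files and 4 were tested. Gm4951, a close relative of Iigp1, had 0 and 2 reads in WT cells and 0 and 1 in Def6-/- cells at day 0, and 66 and 70 against 24 and 28 at day 12. It passed the filter only through day 12, in both genotypes. At day 12 it differed by -1.05 between Def6-/- and WT cells (limma 95% interval -1.96 to -0.14). It passed by the unadjusted rule, as did 0.591% of all genes in this direction, but not after adjustment over all genes. F830016B08Rik and Gm12250 reached the filter only through the WT cells of day 12, with mean deposited CPM of 1.41 and 1.14 there and 0.902 and 0.554 in the Def6-/- cells of day 12, so their differences are not read here. Irgq, a distant relative, did not pass in any comparison and differed by 0.26 between days in WT cells and by 0.11 between genotypes at day 12.

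The ATG8 conjugation genes and adaptors help to direct the GTPases to vacuoles. All 13 were tested and passed the filter at day 0. In WT cells 1 rose (Gabarapl1, 0.62 ± 0.18, limma adjusted p = 0.0423), and in Def6-/- cells 1 rose (Trim21, a ubiquitin ligase, 1.78 ± 0.42, adjusted p = 0.0211), where 12.7% and 12% of all genes rose. Between genotypes 0 passed at either day by limma at an unadjusted p under 0.05. Of all genes, 0.988% were higher and 1.31% lower by this rule at day 0, and 0.591% were lower at day 12. With shares this low, a count of 0 says little about these 13 genes. Their median difference between genotypes at day 12 was 0.0035, beside -0.69 for the GTPases.

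Across the 8 libraries the 5 genes followed each other closely, with Pearson correlations of log2 levels between 0.912 (Irgm1 and Ifi47) and 0.996 (Igtp and Ifi47). These describe 8 libraries that fall into days, and the genes share their libraries and scaling. Iigp1 and Ifi47 passed the filter only through day 12, which favours a high correlation in every pair that holds either gene. The mean of the family used below holds both. Among the 3 regulators, which passed at day 0, the correlations lay between 0.915 (Irgm1 and Igtp) and 0.954 (Irgm2 and Igtp). Igtp and Ifi47 lie in different places on chromosome 11, and Iigp1 on another chromosome correlated with Igtp at 0.984. Among 12343 other genes, the 5 most like the mean of the family were Gm4951 (0.997), Mfsd12, a cysteine transporter of lysosomes (0.995), Il18bp, which neutralises interleukin-18 (0.995), Galnt10, which starts O-linked glycosylation (0.994), and Ifit3, an interferon-induced partner in RNA sensing (0.992). The single gene most like each member was Parp14 for Irgm1 (0.988), Mfsd12 for Irgm2 (0.990), A730056A06Rik for Igtp (0.992) and for Ifi47 (0.996), and Gm4951 for Iigp1 (0.998). Gm4951, Il18bp, Ifit3 and A730056A06Rik also passed the filter only through day 12, which favours a high correlation for them too. A like pattern did not mean a like size: Galnt10 changed by 0.41 between days in WT cells (limma adjusted p = 0.106), whereas Ifit3 differed by 4.31. Ifit3 had 3 and 8 reads in WT cells at day 0 and passed the filter only through day 12, so its difference is given as a description.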

How the data were processed

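Total RNA of 8 libraries was poly-A selected and sequenced, and the submitters' processing notes name fastp, HISAT2, HTSeq, edgeR and the build mm10; versions, annotation, read length and strand setting are not given in the sources used here. The authors deposited CPM values, that is, reads of a gene per 1000000 of all reads, including the 64.7% to 71.2% that HTSeq assigned to no gene, which were left out of library sizes here. Whole reads were recovered from the CPM steps for 99.957% of 114821 positive values (tolerance 0.01 read), and none of the exceptions was in a gene list used here. Reads on genes were scaled with TMM factors from the 12348 tested genes.

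limma 3.58.1 (trend, 4 group means, all 8 libraries) was run on log2(normalized CPM + 1) in R 4.3.3, with a minimum group mean of 1 deposited CPM and Benjamini-Hochberg adjustment over all tested genes. Day comparisons were called at an adjusted p under 0.05, and genotype comparisons, following the study, where the unadjusted p was under 0.05 and the change over 1.2-fold; both are two-sided. The scripts were tested on simulated data. Read ratios use exact 95% intervals that cover counting error only. Shared sequence was measured as 50-base stretches of GENCODE vM21 transcripts. edgeR 4.0.16 and DESeq2 1.42.0 on recovered reads, other scalings, filters and pseudocounts, a replicate block and leaving out each library were the alternatives; TMM factors from all genes were added after seeing the data. P-values measure the spread between these libraries. The libraries' same replicate numbers were not taken to pair them. The 7 genes and the gene and marker lists were chosen with earlier results of these data known. Named were the 7 genes, the genes whose pattern was most like theirs, and genes of those lists. Some items of these lists are not reported here.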

Additional observations from a re-analysis of the deposited data

Results flagged for a closer look

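By the test of the difference itself, the rise of Ifi47 over the 12 days passed as smaller in Def6-/- cells only before adjustment. The difference was -1.25 on the log2(normalized CPM + 1) scale (95% interval -2.26 to -0.23, limma adjusted p = 0.9998). By this rule 0.421% of all genes passed in the same direction. Ifi47 passed the filter only through day 12. Its level at day 0 rests on 1 read in each WT library and 2 reads in each Def6-/- library, and the ratio of normalized reads between the days had intervals of 12.8 to 397.5 in WT cells and 4.58 to 48.3 in Def6-/- cells, which overlap. By edgeR's quasi-likelihood test on recovered reads the difference was -1.86 and did not pass, and with DESeq2 it did not pass either.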

How the results depend on the processing

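With 2 libraries a group and few reads at day 0, small differences cannot be seen. Irgm1, Irgm2 and Igtp rose from day 0 to day 12 in each genotype under every alternative tried, except Irgm2 in Def6-/- cells, which was higher but not past the threshold where either library of day 12 was left out. Iigp1 and Ifi47, admitted only through day 12, are in the medians over 5 genes, which are therefore descriptions. The median rise in WT cells was 3.55; it was 2.57 with CPM as deposited, 3.79 with DESeq2, 3.81 with a pseudocount of 0.1 and 3.21 to 3.78 when a library was left out. In Def6-/- cells it was 1.67 with CPM as deposited and 1.85 to 2.54 when a library was left out. For Def6-/- against WT at day 12, where 3 genes passed, 0 passed with DESeq2 and with a pseudocount of 0.1, 1 without a filter on low values, 5 when only the libraries of day 12 were fitted, and 0 to 2 when a library was left out, with the median between -0.998 and -0.56; the cause was not tested. At day 0, where 1 passed, 0 passed with CPM as deposited, with DESeq2 and when only those libraries were fitted, and 0 to 1 when a library was left out, with the median between -0.30 and 0.26. CPM as deposited also moved the median of all genes at day 0 from -0.0193 to 0.0987. For the difference of the changes, where 1 passed, 0 passed with edgeR and with DESeq2, and 0 to 2 when a library was left out, with the median between -1.14 and -0.54. Signs turned for values near 0: Iigp1 at day 0 (0.0058 with CPM as deposited, -0.30 to 0.26 when a library was left out), Irgm2 at day 0 (-0.39 to 1.14 when a library was left out) and Irgm1 in the difference of the changes (-0.0162 with CPM as deposited, -0.28 to 0.47 when a library was left out). A fit with a library left out has 1 library in a group, which is assumed to vary like the others.

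Same-numbered libraries correlated weakly in their deviations from the group means (0.0881 in the WT groups, 0.152 in the Def6-/- groups, 0.327 at day 0 and 0.0368 at day 12), and the labels give each group the numbers 1 and 2 without saying that a number stands for a shared litter, batch or day, so the replicate block was kept as an alternative. With the replicate block the counts were 5 and 5 for the days (2 of them fixed by the filter), 1 at day 0, 3 at day 12 and 1 for the difference of the changes, with medians of 3.55, 2.54, 0.12, -0.69 and -0.81. At day 12 Irgm1 then passed and Igtp did not.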
